A study of Mus musculus with 18 samples.

Results

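The 51 probes that measure the mouse Hox genes were followed in whole ovaries of Elavl2 knockout (KO) and wild type (WT) mice at 3 stages around birth. A probe was taken when its gene name in the scanner files was Hox followed by a cluster letter, a to d, and a number. This gave 51 of the 41174 non-control probes on the array, for 38 genes: 15 probes in the Hoxa cluster, 15 in Hoxb, 9 in Hoxc and 12 in Hoxd. The name pattern uses no value, but the set was chosen with earlier results of these data known. Probes entered the tests if some group had all 3 of its arrays well above background. This kept 39 Hox probes, for 31 genes, among 29201 probes in all. Hoxc11 was not analysed here.

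Hox genes encode homeodomain transcription factors that give cells their place along the head-to-tail axis. They lie in clusters on separate chromosomes, and the order of the genes in a cluster follows the order of the body levels at which they are used: low numbers towards the head, high numbers towards the tail. In the female tract the high-numbered Hoxa genes are known to pattern the Müllerian duct, with Hoxa9 used in the oviduct, Hoxa10 and Hoxa11 in the uterus and Hoxa13 in the upper vagina. The homeodomain binds DNA together with cofactors of the Pbx, Meis and Prep families, and Polycomb and Trithorax proteins keep the clusters silent or active.

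The 6 groups, each of 3 arrays, were KO and WT ovaries at the embryonic stages E15.5 and E17.5 and at birth (P0). Elavl2 belongs to the ELAV family of RNA-binding proteins, and the labels give the animals no other allele or treatment. The labels do not say which part of Elavl2 was deleted, name the strain, or tie each sample to an animal of its own, so a p-value here measures only how far these samples spread, which may be technical. In RNA of whole ovaries, fewer cells of a type and less RNA per cell cannot be told apart.

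Elavl2 was read first, by 2 probes. The brighter one averaged 2.00 ± 0.12 in KO and 2.11 ± 0.16 in WT at E15.5, 2.65 ± 0.41 in KO and 3.51 ± 0.14 in WT at E17.5, and 3.16 ± 0.20 in KO and 4.52 ± 0.06 in WT at P0 (log2 signal relative to the array's 75th percentile, SD, n = 3 each). It was lower by limma at E17.5 (change of -0.87, adjusted p = 0.0043) and P0 (-1.36, adjusted p = 1.04e-05) but did not pass at E15.5 (-0.11, adjusted p = 0.743), and whether it lies in the deleted part is not known, so it does not check the labels. Replicate arrays correlated at r of 0.964 to 0.995, and 62.5% to 75.1% of probes were well above background on an array. The arrays sat on 7 slides and 2 scan days, and each day had its own scanner model, so the scan-day term holds both. All E15.5 arrays and replicate 3 of both E17.5 groups were of the first day and the rest of the second. Genotype and slide cannot be told apart at E15.5 and P0, where no slide held KO and WT arrays of the same stage. At E17.5 only the replicate 3 arrays of KO and WT shared a slide, and the other KO and WT arrays sat on separate slides.

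The Hox probes were detected on differing numbers of arrays, counted here by position in the cluster with no test. Of the 51 probes, 28 (24 genes) were well above background on all 18 arrays and 5 were above it on none. Among the genes numbered 4 to 8, 15 of 18 probes were above background on all arrays. For the genes numbered 1 to 3 this held for 5 of 13 probes, and for those numbered 9 to 13 for 8 of 20.

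At the head end of the clusters, Hoxb1, a hindbrain gene, was above background on 0 of 18 arrays. At the tail end, Hoxa13, used in the digits, the upper vagina and the urogenital sinus, was above background on 14 arrays with one probe and on 1 with the other. Hoxb13, Hoxc13 and Hoxd12 were above it on 2, 4 and 5 arrays, each probe of Hoxd13 on 1, and Hoxc12 on 0. Both probes of Hoxb8 were at background on every array, although its neighbours Hoxb7 and Hoxb9 were above it on all 18. A second probe of Hoxb2 lies on the opposite strand and one of the 3 probes of Hoxa3 lies away from the other 2. They were above background on 1 and 0 arrays, while the other Hoxb2 probe and 1 other Hoxa3 probe were above it on all 18. The Hoxd cluster had genes that left the measured range between stages: Hoxd1 and Hoxd3 were above background on all 12 embryonic arrays by their main probes, and at P0 only Hoxd1 was, on 2 KO arrays.

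**Figure D1:**
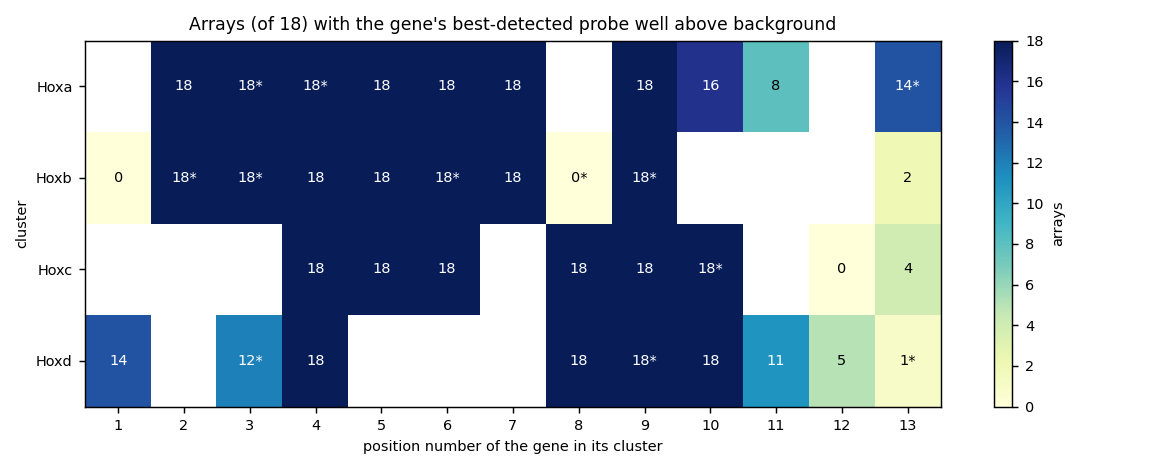
Number of arrays, of 18, on which a gene's best-detected probe was well above background, by cluster (down the page) and position number (across). A star marks a gene with several probes and a blank square a position with no probe shown. Genes at positions 4 to 7 sit at 18 in every cluster where they have a probe. Numbers are lower for some genes at both ends, to 0 for Hoxb1 and Hoxc12, and Hoxb8 also stands at 0.

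At P0, every Hox gene called was higher in KO than in WT ovaries. Of the 39 probes tested, 15 (13 genes) were higher and 0 lower by limma with Benjamini-Hochberg adjustment over all 29201 probes. Of all probes, 16.5% were higher and 16% lower. At an unadjusted p under 0.05 there were 19 Hox probes and 43.7% of all probes. The median Hox change was 0.33 on the log2 scale, against -0.02 over all probes, and 33 of 39 probes had a positive change. Every KO array lay above every WT array for 16 Hox probes and below for 2. Over all probes those shares were 21.4% and 24.8%. Leaving out any 1 array gave 11 to 17 called Hox probes, and the slide as a random block gave 15. With arrays scaled by their median, 21 Hox probes were higher and 0 lower (median 0.47), where the median of all probes was 0.12.

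The high-numbered genes made up most of these calls: 9 of 13 probes for the genes numbered 9 to 13 (median 0.59), 3 of 16 for those numbered 4 to 8 (median 0.30) and 3 of 10 for those numbered 1 to 3 (median 0.25). The classes were not tested against each other. By cluster the calls were 4 of 13 probes in Hoxa, 4 of 10 in Hoxb, 2 of 7 in Hoxc and 5 of 9 in Hoxd.

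**Figure D2:**
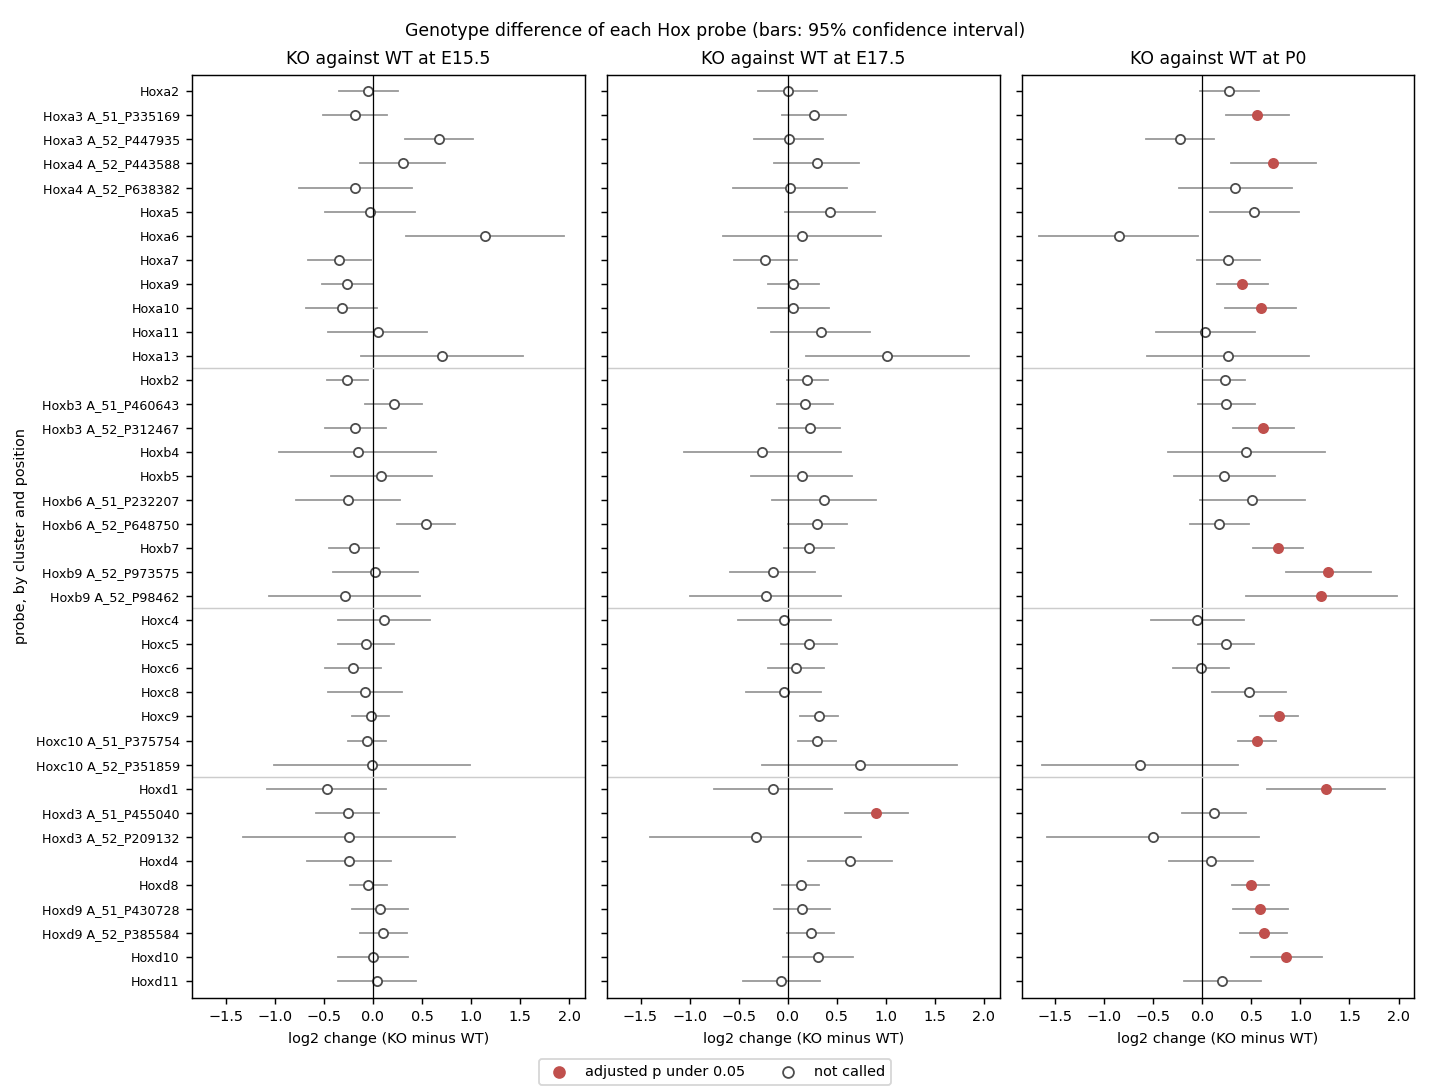
Fitted KO minus WT change of 38 of the 39 Hox probes (log2, with its 95% confidence interval) at E15.5, E17.5 and P0, ordered down the page by cluster and position. Filled points are called. At P0, 15 points are filled, all right of 0, against 1 at E17.5 (Hoxd3) and 0 at E15.5.

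Hoxb9, which acts in the thoracic skeleton and with the other group 9 genes in the mammary gland, showed the largest called change. Its probe at chr11:96137748-96137807 (mm9) read -2.19, -2.21 and -2.39 in KO at P0, and -3.68, -3.96 and -3.0 in WT. The groups did not overlap. The change was 1.28 ± 0.20 (SE; adjusted p = 0.000498). Its second probe, at chr11:96137065-96137124, read -1.81, -1.74 and -3.15 in KO and -3.01, -3.81 and -3.51 in WT. Here KO replicate 3 lay below WT replicate 1, and the change was 1.21 ± 0.36 (adjusted p = 0.0204). The call of this second probe was lost without P0 WT replicate 2, P0 KO replicate 1 or P0 KO replicate 2, with changes of 1.03, 1.00 and 0.96.

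Hoxc9, which sets thoracic identity in the spinal cord and ribs, had the smallest p of the family. Its probe (chr15:102814735-102814794) read 0.59, 0.46 and 0.50 in KO at P0, against -0.36, -0.37 and -0.07 in WT. All KO arrays lay well above all WT arrays, by 0.78 ± 0.09 (adjusted p = 5.17e-05). The neighbouring gene Hoxc10, used at the lumbar level, read -4.12, -4.26 and -4.12 in KO, against -4.80, -4.71 and -4.66 in WT (chr15:102801857-102801916). That was a change of 0.56 ± 0.09 (adjusted p = 0.000668). A second Hoxc10 probe, with 2 arrays of each group above background at P0, read -5.02, -5.52 and -5.56 in KO and -5.91, -4.48 and -3.79 in WT. Its arrays overlapped and its fitted value was -0.64 ± 0.46 (adjusted p = 0.307).

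Hoxd8, Hoxd9 and Hoxd10, neighbours on chromosome 2, were higher together. Hoxd10, a lumbar and hindlimb gene, read -1.35, -1.04 and -1.31 in KO and -2.10, -2.46 and -1.70 in WT. The groups were apart, by 0.86 ± 0.17 (adjusted p = 0.00208). Both Hoxd9 probes were called. One (chr2:74537676-74537735) read -0.14, 0.15 and -0.09 in KO and -0.68, -0.84 and -0.44 in WT, a change of 0.63 ± 0.11 (adjusted p = 0.00112). The other (chr2:74537333-74537392) read -1.89, -1.42 and -1.72 in KO and -2.40, -2.32 and -2.08 in WT, a change of 0.59 ± 0.13 (adjusted p = 0.00453). Neither probe's groups overlapped. Hoxd8 (chr2:74545021-74545080) read -0.17, -0.26 and -0.27 in KO and -0.69, -0.87 and -0.62 in WT, a change of 0.50 ± 0.09 (adjusted p = 0.00109). Hoxd11, which acts with Hoxa11 in the kidney and forearm and comes next in the cluster, was above background on no P0 array of either genotype, so it has no fold at that stage.

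In the Hoxa cluster, the duct genes Hoxa9 and Hoxa10 were called. Hoxa9 read -2.74, -2.54 and -3.04 in KO at P0 and -3.11, -3.12 and -3.31 in WT, a change of 0.41 ± 0.12 (adjusted p = 0.0201). Hoxa10 (chr6:52181656-52181715) read -4.52, -5.01 and -4.54 in KO and -5.13, -5.59 and -5.14 in WT, with 2 arrays of each group above background. The change was 0.60 ± 0.17 (adjusted p = 0.0164). Both genes' arrays were apart, by a small gap. The Hoxa9 call was lost without P0 WT replicate 3, P0 KO replicate 1 or P0 KO replicate 2 (changes of 0.34, 0.39 and 0.29) and the Hoxa10 call without P0 WT replicate 2, P0 KO replicate 1 or P0 KO replicate 3 (0.45, 0.51 and 0.52). Hoxa11, the next duct gene, was below background on all 6 arrays at P0.

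Of the middle genes, Hoxb7 was the most clearly apart. Hoxb7, of the thoracic group, read -0.64, -0.90 and -0.75 in KO at P0 and -1.59, -1.70 and -1.30 in WT (chr11:96151211-96151270). The change was 0.77 ± 0.12 (adjusted p = 0.000446). Hoxa4, which is also known from male germ cells of the mouse, read -1.58, -1.82 and -2.29 in KO and -2.75, -2.70 and -2.41 in WT with its brighter probe (chr6:52139796-52139855). That was a change of 0.72 ± 0.20 (adjusted p = 0.0149), which was no longer called without P0 WT replicate 1, P0 WT replicate 2 or P0 KO replicate 1 (0.66, 0.68 and 0.57). Its other probe, above background on 1 array of each group, read -5.12, -4.27 and -5.56 in KO and -5.50, -5.37 and -5.08 in WT. The arrays overlapped and the value was 0.33 (adjusted p = 0.355).

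Of the head-end genes, Hoxd1, which is known from pain-sensing neurons, read -4.49, -5.51 and -5.12 in KO at P0 and -5.77, -6.76 and -6.37 in WT (chr2:74603000-74603059). It was above background on 2 KO arrays and 0 WT arrays, and was at least 1.46-fold higher in KO. The bound sets the mean of the KO arrays against the mean of the WT arrays, where each WT array counts at its dimmest detected level or at the probe's own level if that was higher. The adjusted p of the fit was 0.00464. Hoxa3, needed for the thymus and parathyroid glands, was likewise at least 1.35-fold higher by the probe at chr6:52119744-52119803 (adjusted p = 0.0127). It read -5.20, -5.03 and -5.21 in KO and -5.92, -5.55 and -5.65 in WT, and the call was lost without P0 WT replicate 1 (0.45). A brighter Hoxa3 probe, at chr6:52120410-52120469, had the opposite sign: -2.96, -2.70 and -2.81 in KO and -2.66, -2.49 and -2.63 in WT, with a value of -0.23 (adjusted p = 0.298). The 2 probes did not give 1 answer for Hoxa3.

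Hoxb3, of the hindbrain and throat region, read -2.95, -2.68 and -3.17 in KO and -3.76, -3.67 and -3.23 in WT by the probe at chr11:96209002-96209061. The change was 0.62 ± 0.14 (adjusted p = 0.00573) with no overlap. Its other probe read -3.15, -2.67 and -3.14 in KO and -3.28, -3.28 and -3.13 in WT, with a value of 0.25 (adjusted p = 0.174). The groups overlapped there.

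**Figure D3:**
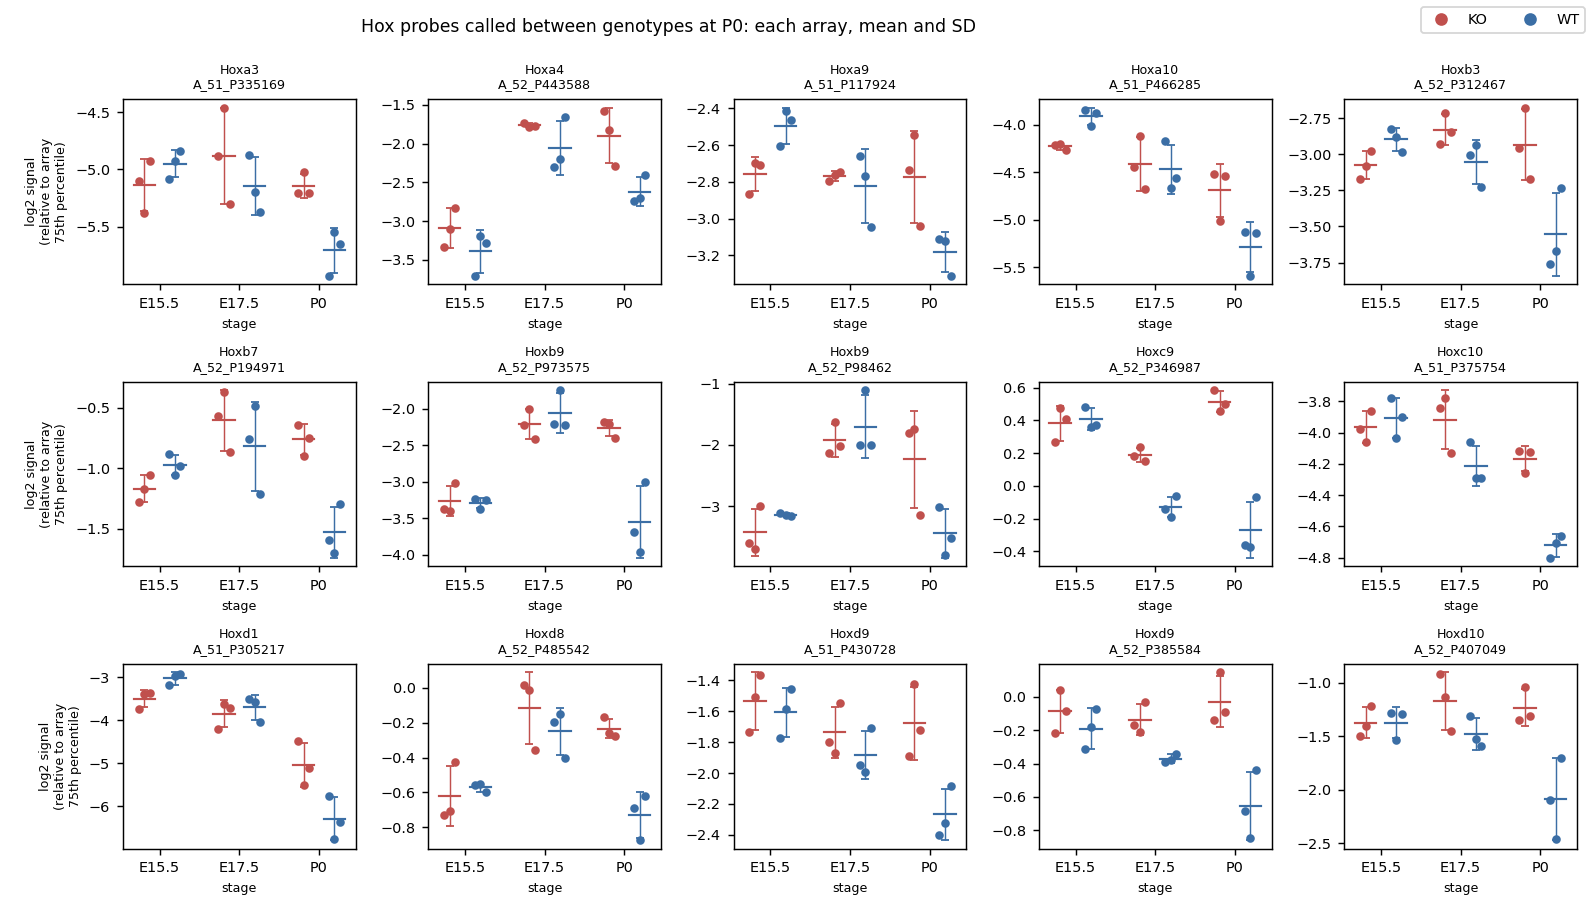
Log2 signal relative to the array's 75th percentile for the 15 Hox probes called at P0, on each array by stage, KO (red) left of WT (blue), with group mean and SD (n = 3). At P0 the KO points lie above the WT points in every panel except the second Hoxb9 probe, where 1 KO array lies among the WT arrays.

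The other 24 Hox probes did not pass at P0, with values from -0.85 to 0.53. Hoxa6, a thoracic gene, had the lowest: -4.27, -4.68 and -5.20 in KO against -4.08, -3.55 and -3.97 in WT (adjusted p = 0.0987), with every KO array below every WT array. Hoxa5, needed in the lung, stood at 0.53 (adjusted p = 0.0711) and Hoxc8, of the thoracic group, at 0.48 (adjusted p = 0.0523), each with overlapping arrays. Typical 95% intervals reached 0.36 to either side, and after adjustment changes larger than that could also go uncalled, as for Hoxa5 and Hoxc8.

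Markers of some other cells of the ovary also differed between genotypes at P0. Endothelial markers were higher in KO for 4 of 5 genes (median 0.57), where 16.5% of all probes were, and their summed log2 level was 2.86 to 3.18 in KO and 2.49 to 2.75 in WT. Surface epithelium markers were higher for 4 of 6 (median 0.32; 6.15 to 6.28 in KO and 5.7 to 5.96 in WT). Germ cell, pregranulosa and stroma markers were higher for 2 of 5, 2 of 6 and 2 of 6, with summed levels of 6.41 to 6.67, 5.76 to 6.01 and 7.38 to 7.76 in KO and of 5.92 to 6.16, 5.61 to 5.78 and 7.36 to 7.51 in WT. Markers of the mesonephric and Müllerian ducts were higher for 2 of 8 (Emx2 and Gata3) and lower for 1 (Lhx1), and summed to 2.23 to 2.47 in KO and 1.79 to 2.07 in WT. Every gene of these 6 lists had a probe above background. Of 5 nephron markers, 2 were not above background in any group and 2 of the other 3 were lower in KO. Of 5 macrophage markers, 1 was higher in KO (median 0.08), and of 4 red cell markers tested, 0 were called (median -0.56). The part of these cells in the Hox result was not tested. The mean level of 23 stroma, pregranulosa, surface epithelium and endothelium markers was 2.07 to 2.16 in KO and 1.76 to 1.86 in WT at P0. With each array scaled to that mean, a scaling chosen after seeing the data, 7 Hox probes were higher and 2 lower, with a median of 0.03 against -0.32 over all probes.

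At E17.5 a single Hox gene, Hoxd3, was called. Of 39 probes, 1 was higher and 0 lower, where 4.81% of all probes were called (1.13% higher, 3.69% lower), and 6 Hox probes had an unadjusted p under 0.05, against 22% of all. The median Hox value was 0.18 against 0.03 over all probes. Hoxd3, which shapes the first neck vertebrae, read -4.38, -4.50 and -3.98 in KO and -5.07, -5.37 and -5.14 in WT by the probe at chr2:74585556-74585615. The groups did not overlap, and the change was 0.90 ± 0.15 (adjusted p = 0.00729). It was 1.16 between the single KO and WT arrays of the first scan day and 0.78 on the second day. The call was lost without replicate 3 of either E17.5 group (0.78, adjusted p = 0.062). The other Hoxd3 probe, at chr2:74582531-74582590, was above background on 1 KO array and 0 WT arrays at E17.5 and gives no comparison.

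Hoxd4, the next gene of the cluster and a neck-vertebra gene, read 0.46, 0.59 and 0.73 in KO and -0.01, -0.25 and 0.15 in WT at E17.5 (chr2:74566866-74566925). Its arrays were apart, with a value of 0.63 ± 0.20 (adjusted p = 0.0866). Hoxc9 read 0.19, 0.24 and 0.15 in KO and -0.14, -0.19 and -0.06 in WT, a value of 0.32 (adjusted p = 0.056). All KO arrays lay above all WT arrays for 8 Hox probes and below for 0. Over all probes the shares were 9.33% and 9.41%.

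At E15.5 no Hox probe was called by limma, where 2.06% of all probes were, and 6 Hox probes had an unadjusted p under 0.05 against 15.4% of all probes. The median was -0.06, against -0.00 over all probes. The nearest to a call was the brighter Hoxa3 probe, at -2.65, -1.85 and -1.98 in KO and -2.73, -2.98 and -2.79 in WT (0.67, adjusted p = 0.0524). Hoxb6, a thoracic gene, read -1.15, -1.05 and -0.68 in KO and -1.67, -1.47 and -1.36 in WT by the probe at chr11:96160281-96160340 (0.54, adjusted p = 0.0661). The duct gene Hoxa9 was on the other side, at -2.87, -2.70 and -2.71 in KO and -2.60, -2.42 and -2.46 in WT (-0.26, adjusted p = 0.315).

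The genotype difference itself changed between E17.5 and P0 for 4 of the 39 Hox probes, 3 upward and 1 downward. That is near the share over all probes, 8.98% (4.04% upward, 4.94% downward). Hoxb9 had the largest: the KO minus WT value was 1.28 at P0 and -0.15 at E17.5, a difference of 1.43 ± 0.28 (adjusted p = 0.00984). Its second probe gave 1.44 (adjusted p = 0.0921). Hoxc9 differed by 0.46 (adjusted p = 0.0368). Hoxd1 differed by 1.41 (adjusted p = 0.0438), and Hoxd3 by -0.78 (adjusted p = 0.0367). For Hoxd1 and Hoxd3, WT at P0 was below background, and so was KO for Hoxd3, so those sizes are those of the fit and not of measured levels.

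The Hoxc9 and Hoxd1 calls were each lost on leaving out any 1 of 12 arrays, with values of 0.41 to 0.49 and 1.13 to 1.5, and the Hoxd3 call on leaving out any 1 of 9. The Hoxb9 call held without any 1 array. With arrays scaled by their median, 6 probes changed upward and 0 downward, with the replicate number as a block 2 upward and 0 downward, and a random block for the slide gave 1 upward (Hoxb9) and 0 downward. In the difference between P0 and E15.5, added after seeing the data, 13 Hox probes were called upward and 2 downward, where 17.4% of all probes were called. For this difference the directions over all probes were not counted, so the split has no share to stand beside. Both differences and the P0 comparison share the P0 arrays.

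Within WT ovaries, 18 of the 39 Hox probes were lower at P0 than at E17.5, 1 was higher and 20 were not called, where 19.8% of all probes were lower and 21% higher, and the median was -0.41 against 0.02. In KO ovaries, 9 were lower and 2 higher, where 18% of all probes were lower and 19.1% higher, with a median of -0.15 against 0.00. Normexp background correction with quantile normalization gave 7 lower and 3 higher in KO. These comparisons share the P0 and E17.5 arrays with the genotype comparisons, so the values stand side by side and are not further evidence for them. The fitted stage changes allow for the scan day, so they can differ from the difference of the group means.

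Hoxd1, Hoxd3 and Hoxd4, the head-end genes of the Hoxd cluster on chromosome 2, were lower at P0 than at E17.5 in both genotypes. Since these 3 moved in the same direction, the 250 bases upstream of their starts are printed from RefSeq (build GRCm38.p6, plus strand), with CCAAT, or ATTGG for the other strand, in capitals. They lie at chr2:74762730-74762979 for Hoxd1, chr2:74711743-74711992 for Hoxd3 and chr2:74721728-74721977 for Hoxd4. The Hoxd3 stretch lies before that of Hoxd4, while the Hoxd3 probes lie beyond the Hoxd4 probe. Whether the measured Hoxd3 transcript starts there was not tested.
Hoxd1: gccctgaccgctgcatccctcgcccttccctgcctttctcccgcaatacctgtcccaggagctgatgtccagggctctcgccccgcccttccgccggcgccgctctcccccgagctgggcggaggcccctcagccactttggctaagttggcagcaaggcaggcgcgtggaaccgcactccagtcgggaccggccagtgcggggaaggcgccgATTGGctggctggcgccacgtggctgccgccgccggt
Hoxd3: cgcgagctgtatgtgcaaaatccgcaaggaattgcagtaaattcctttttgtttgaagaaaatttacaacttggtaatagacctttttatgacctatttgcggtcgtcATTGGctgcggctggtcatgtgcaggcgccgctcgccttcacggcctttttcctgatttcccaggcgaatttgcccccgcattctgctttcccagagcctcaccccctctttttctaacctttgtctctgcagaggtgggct
Hoxd4: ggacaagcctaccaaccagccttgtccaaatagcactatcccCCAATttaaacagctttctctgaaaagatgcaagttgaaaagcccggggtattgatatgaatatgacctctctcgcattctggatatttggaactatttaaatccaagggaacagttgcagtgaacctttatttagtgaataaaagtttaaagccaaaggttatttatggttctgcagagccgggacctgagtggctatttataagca
CCAAT stood once in each. Hoxd11, of the same cluster and also lower at P0 in both genotypes, had CCAAT in neither of its promoters. Searched on both strands, it was in 14 of the 24 Hox promoters of the RefSeq table and in 33.8% of all 32851. TGATNNAT, a pattern bound by Hox with Pbx, was in 4 of the 24 and 7.68% of all, and TAATTA, a homeodomain core, in 2 and 4.84%. The promoters of these 3 genes held 24, 12 and 3 CpG pairs, and the median was 12.5 over the Hox promoters and 6 over all. A match is a description of the letters, not of binding.

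Hoxd1 read -3.73, -3.40 and -3.37 in KO and -3.19, -2.97 and -2.92 in WT at E15.5, and -4.21, -3.63 and -3.71 in KO and -3.49, -3.57 and -4.04 in WT at E17.5. With the P0 values above, its signal was lower at P0 in both genotypes. In WT it was at least 3.68-fold lower at P0 than at E17.5 (adjusted p = 3.4e-05), and in KO it fell by 1.24 ± 0.30 on the log2 scale (adjusted p = 0.00574).

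Hoxd3 read -4.30, -4.72 and -4.31 in KO and -4.15, -4.02 and -4.39 in WT at E15.5, and at P0 it read -7.28, -7.38 and -7.61 in KO and -7.52, -7.40 and -7.71 in WT. Every P0 array was below background and the genotypes overlapped there. It was at least 2.26-fold lower at P0 than at E17.5 in KO (adjusted p = 1.08e-07) and at least 1.31-fold lower in WT (adjusted p = 1.36e-06). In WT it was already lower at E17.5 than at E15.5 (-0.83 ± 0.18, adjusted p = 0.00621), a call that was lost without E17.5 WT replicate 3 (-0.57). In KO that change was not called.

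Hoxd4 was above background on every array. At E15.5 it read 0.59, 0.80 and 0.67 in KO and 1.11, 0.94 and 0.76 in WT, and at P0 -1.13, -1.21 and -0.84 in KO and -1.15, -1.65 and -0.64 in WT. It fell by 1.58 ± 0.21 between E17.5 and P0 in KO (adjusted p = 0.000114) and by 1.03 ± 0.21 in WT (adjusted p = 0.00195). The genotypes overlapped at P0.

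Hoxb9 fell between E17.5 and P0 in WT, by 1.58 ± 0.21 and 1.84 ± 0.38 with its 2 probes (adjusted p = 0.000124 and 0.00207). In KO neither probe was called. The E17.5 values of the first probe were -2.22, -2.0 and -2.41 in KO and -2.21, -1.74 and -2.22 in WT. By this probe the genotypes overlapped at E17.5, and at P0 only WT lay below that range. By the second probe P0 KO replicate 3, at -3.15, also lay below every E17.5 array (-2.14 to -1.11).

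Hoxc6, of the thoracic group, fell in both genotypes. It read -0.90, -0.35 and -0.45 in KO and -0.37, -0.64 and -0.66 in WT at P0, and 0.49, 0.49 and 0.05 in KO and 0.31, 0.37 and 0.11 in WT at E17.5. The falls were 1.02 ± 0.14 in KO (adjusted p = 0.000146) and 0.93 ± 0.14 in WT (adjusted p = 0.00027). Hoxd11 went below background at P0: it was at least 1.14-fold lower in KO (adjusted p = 0.00613) and at least 1.29-fold lower in WT (adjusted p = 0.000902). Hoxb6 was called lower by the probe at chr11:96162563-96162622, with -0.80 in KO and -0.93 in WT. The WT call was lost without E17.5 WT replicate 2 (-0.82) or P0 WT replicate 2 (-0.75), and the KO call without any of 5 arrays (-0.75 to -0.67). The brighter Hoxb6 probe, at chr11:96160281-96160340, was not called in either genotype, and its stages overlapped. At P0 it read -1.26, -1.07 and -1.26 in KO and -1.51, -1.38 and -1.21 in WT. At E17.5 it read -1.44, -1.54 and -0.41 in KO and -1.73, -1.54 and -1.02 in WT.

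Hoxc9 moved the other way in KO, where it rose by 0.33 ± 0.09 (adjusted p = 0.0139). In WT it was not called.

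**Figure D4:**
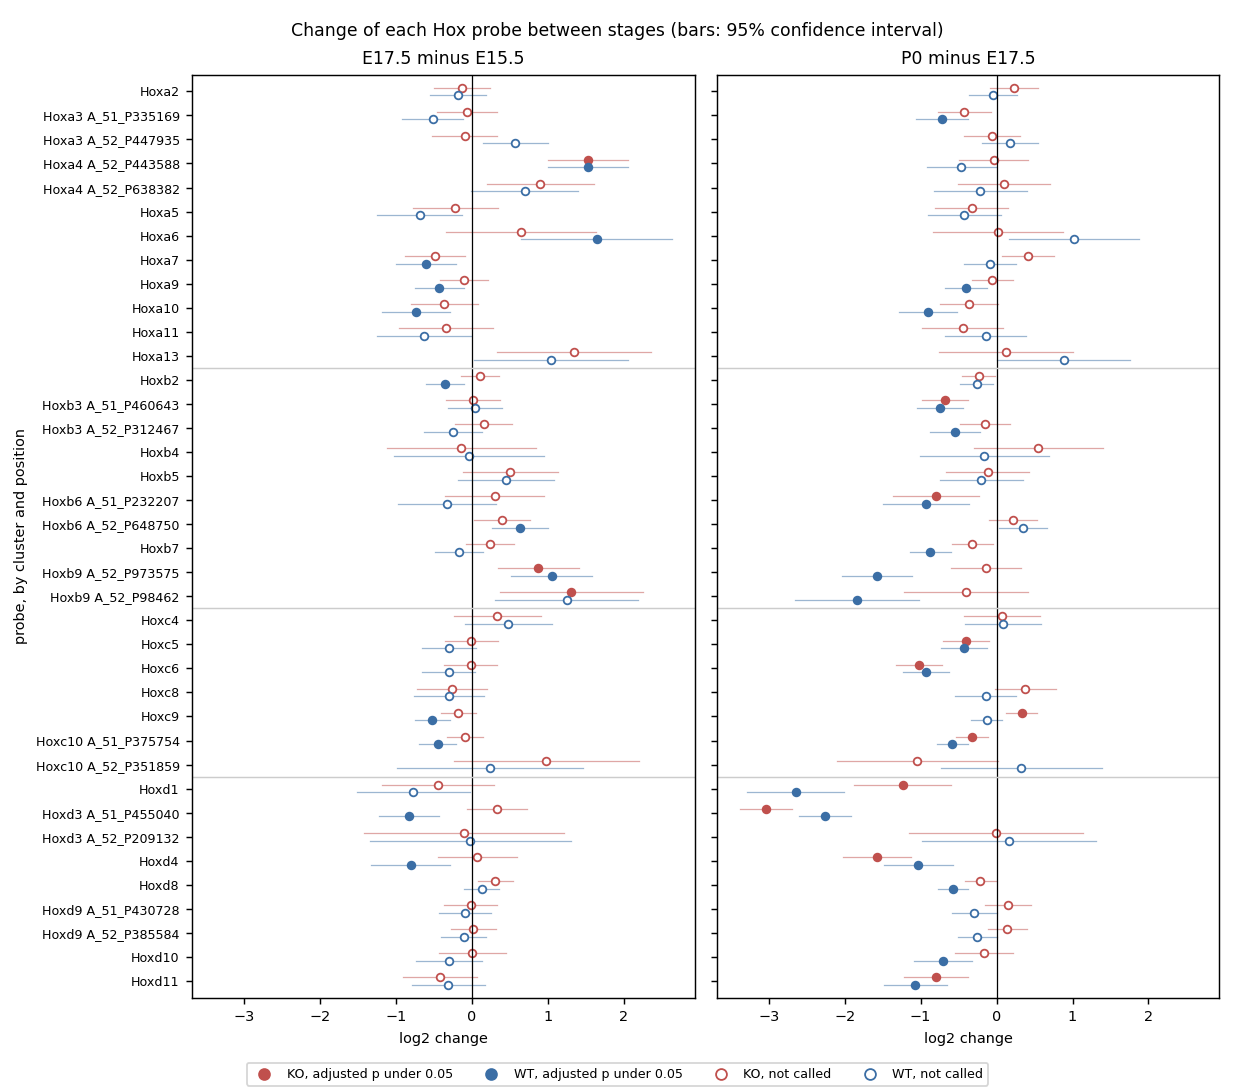
Fitted change of 38 of the 39 Hox probes between stages (log2, with its 95% confidence interval) in KO (red) and WT (blue), by cluster and position. Filled points are called. From E17.5 to P0, 18 WT points are filled left of 0 against 9 KO points, and Hoxd1, Hoxd3 and Hoxd4 are filled left of 0 in both genotypes.

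Between E15.5 and E17.5 fewer Hox genes changed. In KO ovaries 3 probes were higher and 0 lower at E17.5 (10.5% and 11.1% of all probes, median 0.01 against 0.07). In WT ovaries 4 were higher and 8 lower (13.6% and 11.3%, median -0.25 against 0.02). All E15.5 arrays were scanned on the first day, and the scan-day term rests on replicate 3 of the E17.5 groups, so these counts depend on few arrays: leaving out 1 array gave 1 to 7 in KO and 2 to 14 in WT. With arrays scaled by their median, 1 was higher and 1 lower in KO, and 3 were higher and 14 lower in WT, where the median of all probes was -0.11 and -0.18. With the replicate number as a block, 1 was higher and 0 lower in KO.

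Hoxa4 rose in both genotypes by its brighter probe. It read -1.73, -1.79 and -1.77 in KO and -2.31, -2.20 and -1.66 in WT at E17.5, and -3.34, -3.10 and -2.83 in KO and -3.70, -3.19 and -3.28 in WT at E15.5. The stages did not overlap. The rises were 1.52 ± 0.24 in KO (adjusted p = 0.00078) and 1.53 ± 0.24 in WT (adjusted p = 0.000871), and the WT call was lost without E17.5 WT replicate 3 (1.13). Hoxb9 rose by 0.87 ± 0.25 in KO (adjusted p = 0.0243) and 1.05 ± 0.25 in WT (adjusted p = 0.00876) by its first probe, and by 1.31 ± 0.44 in KO by the second (adjusted p = 0.0483). The first probe's KO call was lost without E15.5 KO replicate 1, E15.5 KO replicate 2, E17.5 WT replicate 3 or E17.5 KO replicate 3 (0.80 to 0.91), its WT call without E17.5 WT replicate 3 (1.01), and the second probe's call without any of 11 arrays (1.09 to 1.42).

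In WT alone, Hoxa10 (-0.74), Hoxd4 (-0.81), Hoxa7 (-0.60), Hoxc9 (-0.52), Hoxc10 (-0.45), Hoxa9 (-0.43) and Hoxb2 (-0.36) were called lower at E17.5, beside Hoxd3. Of the 12 WT calls, 11 were lost without at least 1 array. The 2 WT rises beside Hoxa4 and Hoxb9, Hoxa6 (1.64) and Hoxb6 by the probe at chr11:96160281-96160340 (0.63), had overlapping stages. Hoxa6 read -5.09, -4.72 and -2.71 in KO and -4.20, -5.23 and -3.52 in WT at E17.5, and -4.51, -3.41 and -3.15 in KO and -4.81, -4.58 and -5.10 in WT at E15.5. The highest array of each E17.5 group and of the E15.5 KO group was the replicate 3 array on slide 3.

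**Figure D5:**
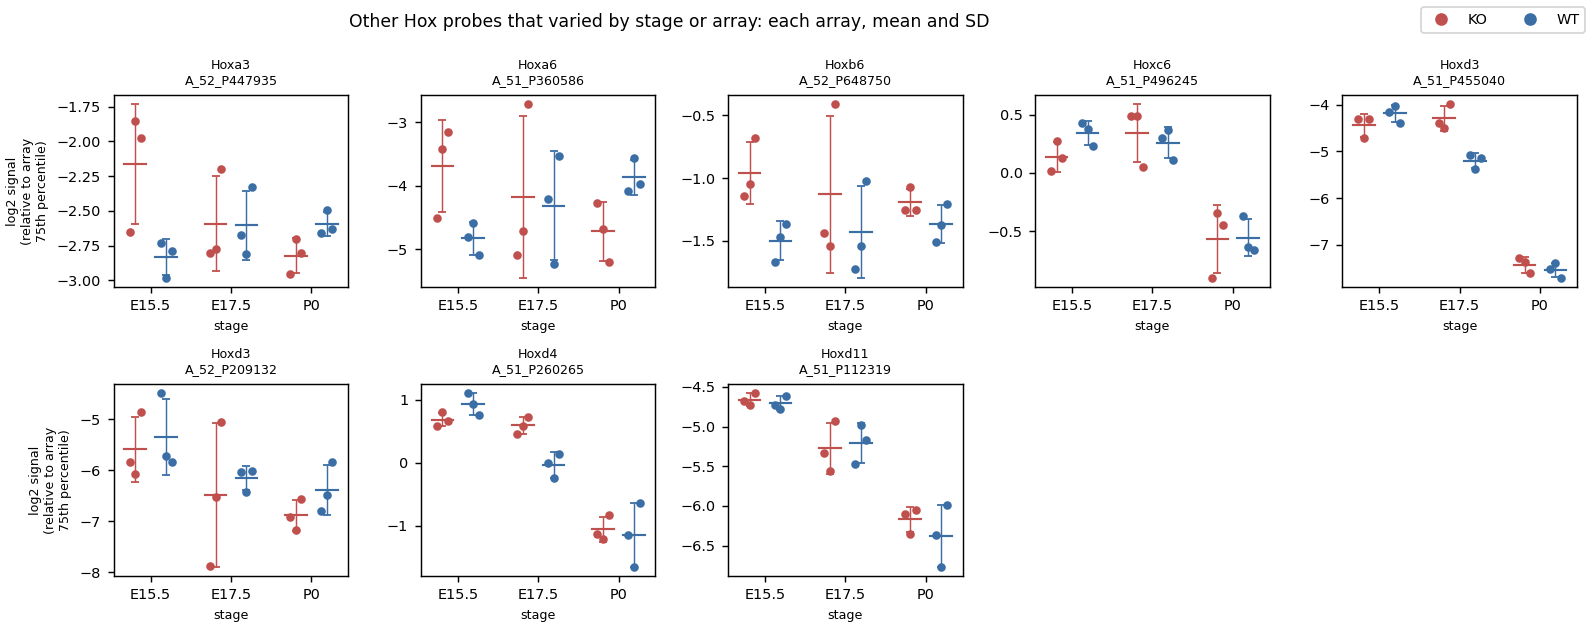
Log2 signal relative to the array's 75th percentile on each array by stage, KO (red) left of WT (blue), with group mean and SD (n = 3), for 8 further Hox probes that varied by stage or array. Hoxd3 (A_51_P455040), Hoxd4, Hoxd11 and Hoxc6 lie lowest at P0 in both genotypes, and Hoxa6 and Hoxb6 have a high KO replicate 3 array at E17.5.

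Genes that act with Hox proteins or on the clusters were taken with each gene's brightest probe at P0, where 16.5% of all probes were higher and 16% lower. Of 9 cofactors of the TALE homeobox class, 3 were higher in KO and 0 lower (median 0.15), among them Meis1 (0.39) and Pbx3 (0.24), which bind DNA with Hox proteins. Of 21 Polycomb genes, 3 were higher and 3 lower (median 0.05), among them Ezh2, the methyltransferase of the complex (-0.38), Cbx2 (-0.53) and Cbx7 (0.45), which read its mark, and Suz12 (0.34). Of 10 Trithorax and demethylase genes, 1 was higher and 3 lower (median -0.07), with Kdm6b, which removes the Polycomb mark, at 0.36. The lower ones are not named here. Of 6 caudal and ParaHox genes, relatives of the Hox family, 3 were tested and 0 called by limma. At E15.5 and E17.5 no gene of these lists was called in a genotype comparison.

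Of 13 genes flanking the clusters, 6 were lower and 2 higher in KO at P0 (median -0.12), beside the 16% and 16.5% of all probes, and the directions were not tested against each other. The lower ones were Ttll6 (-2.11) and Skap1 (-1.48) beside Hoxb, Snx10 (-0.55) and Skap2 (-0.35) beside Hoxa, and Smug1 (-0.48) and Cbx5 (-0.35) beside Hoxc, and the higher ones Hnrnpa1 (0.34) and Atp5g3 (0.26). Evx2, which lies beyond Hoxd13, stood at -0.75 (adjusted p = 0.0656). The base composition of the 39 Hox probes ran from 30% to 55% GC. Of 30 probes at up to 45% GC, 13 were called at P0, and of 9 above it 2 were.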

How the data were processed

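Whole ovaries were measured on 18 Agilent 1-colour mouse arrays, 3 for each of 6 groups taken from the labels. Per the file headers, the deposited scanner files give the intensity of every spot, less its background, from Agilent Feature Extraction 10.7.3.1, while the submitters' processing notes give version 9.5. The deposited series matrix holds log2 values of the same arrays. In each column 99.4% of probes lay within 0.001 of the log2 intensity plus a constant, and it was used as an alternative.

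Control spots and the 51 to 109 spots per array marked as outliers were dropped; none was saturated. The log2 intensity minus the array's 75th percentile was used. Of 41174 probes, 29201 passed the filter (some group with all 3 arrays well above background). These were fitted by limma 3.58.1 (R 4.3.3) in a model with the 6 groups and the scan day (11 residual degrees of freedom). Calls were made at a Benjamini-Hochberg adjusted p under 0.05 over all probes tested. The number of arrays limits the precision. A group below background on all its arrays has only a bound. On data simulated from these arrays for KO against WT at P0, over 29201 probes, 37 of 50 probes raised by 1 log2 unit were recovered, 13 of 50 raised by 0.5 and 15 of 50 lowered by 0.5, and 8 of 29001 unchanged ones called. Few probes were changed in the simulation, while in the data 16.5% were called higher and 16% lower. The adjustment was therefore stricter in the simulation, and these shares do not give the sensitivity of the P0 comparison itself.

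The Hox probes and the gene lists were chosen with earlier results of these data known. Values per array are given for every Hox probe called in a genotype comparison, with the other probes of its gene, and for the members with the 6 largest rises and 6 largest falls in a stage comparison, of which the text prints the largest. Of the other lists some called members are named, with values from the probe with the highest mean. At most 4 are named per list, except for the flanking genes, and Evx2 is named without a call. Some genes and probe sequences are not reported here, and they remain in the counts. Probe coordinates are the files' own, on mm9, and promoters are those of RefSeq (GRCm38.p6).

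Same-numbered arrays deviated together at E17.5 (correlations across probes of 0.15, 0.40 and 0.48). At that stage replicate 3 of both groups differed from replicates 1 and 2 in slide and scan day. The correlations therefore cannot show whether the numbers pair the samples. At E15.5 and P0 the correlations did not all reach 0.1. Alternatives were normexp with quantile normalization, quantile normalization, median scaling, the series matrix, other filters, no scan-day term, 1 probe per gene, other variance moderation, array weights, the slide as a random block, fewer stages, the replicate block, a 2-fold threshold and omitting each array in turn. Omitting slide 3, omitting both E17.5 replicate 3 arrays, and scaling to somatic markers were added after seeing the data. Plots used matplotlib 3.10.9.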

Additional observations from a re-analysis of the deposited data

Results flagged for a closer look

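The genotype difference of 4 Hox probes was not the same at P0 and E17.5 by a limma test of the difference itself: Hoxb9 (A_52_P973575, 1.43), Hoxc9 (0.46), Hoxd1 (1.41) and Hoxd3 (A_51_P455040, -0.78, log2, P0 minus E17.5). This was 4 of 39 probes, near the 8.98% of all probes that were called. The Hoxd1 and Hoxd3 sizes are those of the fit, since WT at P0, and for Hoxd3 KO too, was below background. The Hoxc9 and Hoxd1 calls were lost on leaving out any 1 of 12 arrays and the Hoxd3 call on leaving out any 1 of 9.

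Between P0 and E15.5 the difference changed upward for 13 probes and downward for 2 by the same test, in a comparison added after seeing the data. Of all probes, 17.4% were called, and their directions were not counted. Hoxd1 (1.73) and Hoxa3 (A_51_P335169, 0.75) were below background in WT at P0, so those sizes too are of the fit. The change was 1.26 for Hoxb9 (A_52_P973575). In the Hoxa cluster the changes were 0.67 for Hoxa9 and 0.91 for Hoxa10. In Hoxb they were 0.49 for Hoxb2, 0.80 for Hoxb3 (A_52_P312467) and 0.96 for Hoxb7. In Hoxc they were 0.81 for Hoxc9 and 0.61 for Hoxc10 (A_51_P375754), and in Hoxd 0.55 for Hoxd8, 0.52 for Hoxd9 (A_52_P385584) and 0.85 for Hoxd10. The downward ones were Hoxa6 (-1.99) and the brighter Hoxa3 probe (A_52_P447935, -0.90). No group of 3 arrays was tested for outlying arrays.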

How the results depend on the processing

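At P0, from 11 to 21 Hox probes were higher under the alternatives, except 3 past 2-fold and 7 when scaled to somatic markers. The number lower was 0, except 1 with no filter and 2 when scaled to somatic markers (9 calls in all there). The direction therefore did not hold for every call with those last settings. Of the 15 calls at P0, 10 held without each array in turn. At E15.5, against 0 calls, 1 was made with normexp or the stricter filter and 2 with trended moderation or array weights. At E17.5, against 1, there were 3 with normexp, 2 with the stricter filter or trended moderation, and 0 with array weights, only that stage, the 2-fold threshold, without slide 3 or without both E17.5 replicate 3 arrays. For E17.5 against E15.5 in KO, against 3, there were 6 with quantile normalization, no scan-day term or trended moderation, 1 with array weights, 9 without slide 3 and 11 without both E17.5 replicate 3 arrays. The 2-fold threshold left 3 of 12 calls (E17.5 against E15.5 in WT), 7 of 19 (P0 against E17.5 in WT) and 5 of 11 (the same in KO). The difference between P0 and E17.5, with 4 calls, had 1 with no filter, no scan-day term, array weights or the slide block, and 2 with only the 2 stages, the 2-fold threshold, without slide 3 or without both E17.5 replicate 3 arrays. With the replicate block there were 1 at E17.5, 2 for the difference, 16 at P0 and 1 for E17.5 against E15.5 in KO, and it moved no other count by over 1.5 times.

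Leaving out 1 array gave 0 to 3 calls at E15.5 (3 without E15.5 KO replicate 1), 0 to 3 at E17.5 (0 without replicate 3 of either group, 2 and 3 without P0 WT replicates 2 and 3), 11 to 17 at P0, and 1 to 5 for the difference. It gave 2 to 14 for E17.5 against E15.5 in WT (2 without E17.5 WT replicate 3, 6 without E15.5 WT replicate 1) and 1 to 7 in KO (1 without E15.5 KO replicate 1 or 2 or E17.5 WT replicate 3, 7 without E15.5 KO replicate 3, 6 without P0 KO replicate 2). For P0 against E17.5 it gave 15 to 22 in WT and 8 to 13 in KO. The rise of Hoxb6 (A_52_P648750) at E17.5 in WT, 0.63, became -0.14 without slide 3 or without both E17.5 replicate 3 arrays. The cause of these moves was not tested. Probes near background (11 of the 39 were not above it on all arrays) are the least precise.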

Other observations

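Probes of Hoxa6 and Hoxb6 were high on the arrays of slide 3, which carried replicate 3 of E15.5 KO, E17.5 KO and E17.5 WT. Hoxa6 read -3.15, -2.71 and -3.52 there, against -4.51 to -3.41 on the other E15.5 KO arrays, -5.09 and -4.72 on the other E17.5 KO arrays and -5.23 and -4.20 on the other E17.5 WT arrays. Hoxb6 (A_52_P648750) read -0.68, -0.41 and -1.02 there, against -1.15 and -1.05, -1.54 and -1.44, and -1.73 and -1.54 on the others of those groups. Its other probe read -3.41, -2.99 and -3.54 on slide 3, against -3.44 and -3.28, -3.0 and -2.66, and -3.23 and -3.01. The part of the slide in these values was not tested.

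Hoxd12, which was not tested because no group had all 3 arrays above background, read -4.02, -3.97 and -4.51 on slide 3 and was above background there on each array. Its 2 other arrays above background were WT arrays at P0, where the WT arrays read -4.99, -5.72 and -4.47 and the KO arrays -7.45, -6.39 and -7.67. Hoxb13 read -4.08 on E15.5 KO replicate 1 and between -8.60 and -5.59 on every other array.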
